A study of Mus musculus with 2 samples.

Results

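Among the standard nuclei of C2C12, a mouse myoblast line, the 280 richest and the 280 poorest in transcripts of 20 G2/M genes were compared over all other genes. The ranking genes were Top2a, Mki67, Cenpe, Cenpf, Ccnb1, Ccnb2, Cdc20, Bub1, Aurka, Aurkb, Kif11, Kif20b, Tpx2, Hmmr, Nusap1, Ube2c, Birc5, Plk1, Anln and Ckap2l. Each of the 1123 standard nuclei with over 750 unique molecular identifiers (UMIs) in the kallisto matrix was ranked by the share of its STAR UMIs in these genes. The 2 groups were thus chosen by the measured ranking share: the highest 280 nuclei (G2/M-high) and the lowest 280 (G2/M-low), with 563 between them. In what follows the nuclei form 4 rank bins of 280, 281, 282 and 280, of which the bottom bin is G2/M-low and the top bin G2/M-high. The whole series held 2458 nuclei over the same minimum in 2 libraries.

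Both libraries came from C2C12 cells harvested near confluence, with no treatment or cell cycle arrest described. Nuclei were isolated, fixed in methanol and run on droplets, and the other library was first treated with yeast poly(A) polymerase, which tails RNA ends. Each library was a single preparation, so there were no replicates. The 2 groups are nuclei of 1 library, and no test between them was made. Intervals given in brackets are 95% intervals of a ratio of counts and cover counting error only.

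Between DNA replication and division, cells pass through G2 and mitosis. In these phases a shared group of genes is transcribed, encoding cyclin B, its kinase, spindle motors, kinetochore proteins and the machinery that breaks down cyclins and separates the daughter cells. Many of their promoters hold CCAAT boxes and, close to the start site, a cell cycle genes homology region (CHR), through which the DREAM and MuvB complexes act. Myoblasts divide until they leave the cell cycle, after which they turn on sarcomere genes and fuse.

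To show these elements in the members themselves, the 120 bases before the start site are printed for 4 ranking genes and for Prc1 and Espl1, which were among the 15 genes with the highest ratios of those with at least 200 UMIs. The 6 were picked because CHR letters lie in these bases. Of the promoters read over these bases, 6 of 18 of the ranking genes held CHR letters, as did 4 of 18 of the 15 highest genes, and another annotated start of Prc1 held none. Top2a encodes a topoisomerase, Cdc20 an activator of the anaphase-promoting complex, Ube2c its ubiquitin-conjugating enzyme, Kif11 a spindle motor, Prc1 a microtubule bundler of the midzone and Espl1 separase, which cuts cohesin. The sequences are from RefSeq on GRCm38.p6, read 5′ to 3′ on the gene's strand, and capitals mark CHR letters (TTTGAA or TTCGAA) and CCAAT on either strand.
Top2a, chr11:99024190-99024309, minus strand: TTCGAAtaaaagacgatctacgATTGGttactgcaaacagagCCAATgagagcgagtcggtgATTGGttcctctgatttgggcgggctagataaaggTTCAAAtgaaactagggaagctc
Cdc20, chr4:118437344-118437463, minus strand: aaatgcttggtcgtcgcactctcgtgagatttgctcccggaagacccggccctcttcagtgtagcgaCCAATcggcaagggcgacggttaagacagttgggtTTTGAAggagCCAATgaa
Ube2c, chr2:164769809-164769928, plus strand: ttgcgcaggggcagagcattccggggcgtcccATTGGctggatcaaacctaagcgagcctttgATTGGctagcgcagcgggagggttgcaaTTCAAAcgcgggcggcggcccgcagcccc
Kif11, chr19:37376262-37376381, plus strand: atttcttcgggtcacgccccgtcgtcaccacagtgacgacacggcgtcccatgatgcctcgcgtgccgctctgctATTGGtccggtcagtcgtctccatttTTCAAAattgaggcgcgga
Prc1, chr7:80294356-80294475, plus strand: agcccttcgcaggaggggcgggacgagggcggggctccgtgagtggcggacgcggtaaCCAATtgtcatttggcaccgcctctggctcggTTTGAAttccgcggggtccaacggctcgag
Espl1, chr15:102296173-102296292, plus strand: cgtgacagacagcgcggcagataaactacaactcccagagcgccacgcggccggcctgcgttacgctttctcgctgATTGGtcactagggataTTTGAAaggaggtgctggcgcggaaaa
In these 6 promoters the CHR letters nearest the start began 23, 18, 29, 19, 30 and 27 bases before it, in the order printed.

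The ranking separated nuclei by the 20 genes and hardly by depth. The genes held a median of 0.569% of STAR UMIs in G2/M-high nuclei (0.463 to 1.15) and 0.122% in G2/M-low nuclei (0 to 0.200), or 27 against 6 UMIs per nucleus. At the upper edge, the last nucleus inside held 19 ranking UMIs of 4106 and the first outside 16 of 3459. At the lower edge the last nucleus inside held 10 of 4997 and the first outside 7 of 3497, so neighbours across each edge were alike. The shares formed 1 continuous range, and 5 nuclei held none of these UMIs.

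**Figure D1:**
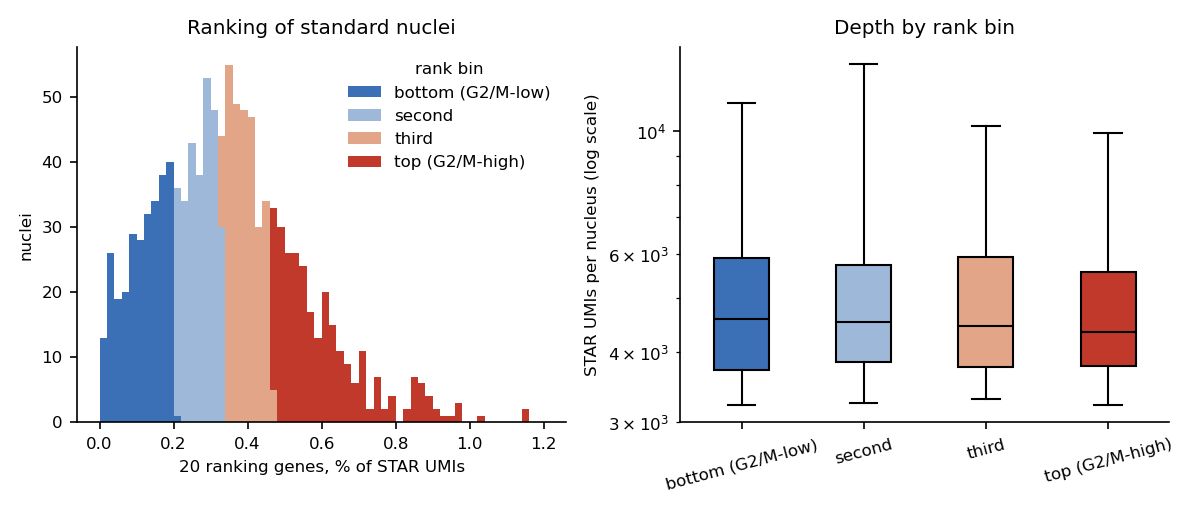
Left, number of standard nuclei by the share of their STAR UMIs in the 20 ranking genes, coloured by rank bin. Right, STAR UMIs per nucleus in each rank bin on a log scale, with boxes from the lower to the upper quartile, the median as a line and whiskers from the 5th to the 95th percentile. The shares have no gap at either edge and the medians of depth lie between 4344.5 and 4593.5 UMIs.

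The groups were of like depth. G2/M-high nuclei had a median of 4344.5 STAR UMIs (quartiles 3769.5 and 5575.25) and G2/M-low nuclei 4593.5 (quartiles 3718.75 and 5917.25), and the summed groups held 1464437 and 1568772 UMIs. Thinned to 2000 UMIs, with 0 nuclei left out in either group, they showed medians of 1223 and 1204 genes, against 2259.5 and 2317.5 without thinning. Over all 1123 nuclei the ranking share and the depth had a Spearman coefficient of -0.04, given as a description of nuclei from 1 library. Of the myoblast markers, Des (desmin) had 340 UMIs in G2/M-high and 466 in G2/M-low nuclei, Ncam1 had 886 and 957, and Cdh15 (M-cadherin) had 64 and 72. Myod1 had 11 and 12 and Myf5 7 and 12, while Msc and Myf6 had 0 in both.

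The 20 ranking genes themselves summed to 8768 UMIs in G2/M-high and 1821 in G2/M-low nuclei, which the rule fixed. Top2a had 1232 against 258, Mki67, the proliferation antigen that coats mitotic chromosomes, 1411 against 349, and Cenpe, a kinetochore motor, 988 against 152. To see these genes without their own weight in the ranking, nuclei were also ranked by the first 10 of the list to describe the last 10, and the reverse. All 20 then kept a log2 ratio above 1, from 1.10 for Birc5 (137 against 69 UMIs) to 2.14 for Nusap1 (217 against 53), with a median of 1.76. Top2a had 1045 against 331 UMIs (log2 ratio 1.76 [1.58 to 1.95]), Mki67 1112 against 435 (1.46 [1.30 to 1.62]) and Cenpe 838 against 223 (2.01 [1.80 to 2.23]).

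Outside the ranking list, 5425 genes had at least 100 UMIs in the 2 groups together, and their median log2 ratio of G2/M-high over G2/M-low was -0.01 (quartiles -0.20 and 0.20). The minimum is on both groups together, so a gene can pass it through the group where it is higher. Ratios are of CPM, here UMIs scaled to an equal total of UMIs outside the 20 ranking genes. Past 1.5-fold, 317 genes (5.84%) were higher and 207 genes (3.82%) were lower in G2/M-high nuclei, and these are the shares against which each list below is read. Past 2-fold the numbers were 124 and 34. Protein-coding genes made up 308 of the 317 and 196 of the 207, and lncRNAs 8 of each.

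**Figure D2:**
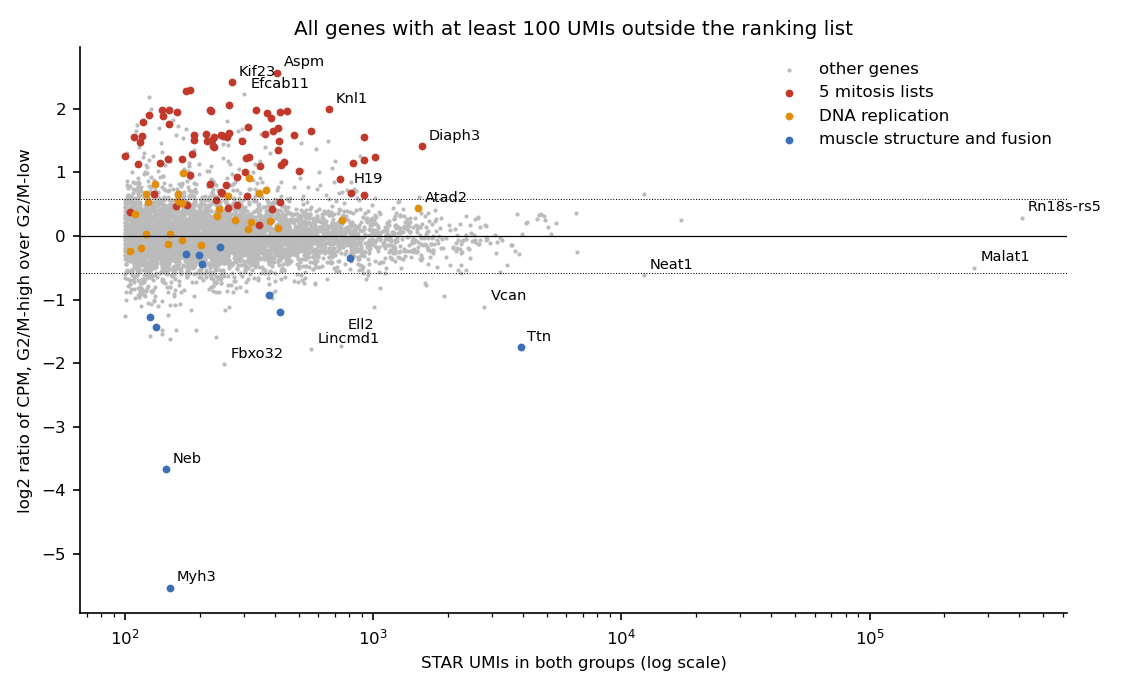
Each point is 1 of the 5425 genes with at least 100 UMIs outside the ranking list, placed by its STAR UMIs in both groups (log scale) and its log2 ratio of CPM, G2/M-high over G2/M-low, with dotted lines at 1.5-fold. Genes of the 5 mitosis lists lie above 0, from 0.18 to 2.57, and the muscle genes Myh3, Neb and Ttn lie at -5.53, -3.66 and -1.74.

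Nearly all of the mitosis genes that the ranking did not use were higher in G2/M-high nuclei. Across 5 lists of 96 such genes, 82 reached 100 UMIs, 73 of these were higher past 1.5-fold and 0 were lower. Their median log2 ratio was 1.49, and their summed UMIs were 19703 against 8627 (log2 ratio 1.30 [1.26 to 1.33]). The members under the minimum are not in these counts.

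Of the 5 lists the spindle list was the most uniform, with 22 of 22 members higher and a median log2 ratio of 1.71. Aspm, a spindle pole protein (chromosome 1, 139382486 to 139421829, plus strand, GRCm39), had 347 UMIs in G2/M-high and 63 in G2/M-low nuclei, a log2 ratio of 2.57 [2.18 to 2.98]. Over the 4 rank bins from bottom to top its CPM went 40.2, 87.5, 120 and 238, so the nuclei between the groups lay between them. Kif23, the motor of the central spindle, had 224 against 45 UMIs (2.42 [1.95 to 2.92]), Kif14 had 209 against 54 (2.06 [1.62 to 2.52]) and Kif2c, which takes microtubules apart at centromeres, 173 against 47 (1.99 [1.51 to 2.48]). Kif4, a chromosome-bound motor, had 353 against 97 (1.97) and Ckap2, a spindle microtubule protein, 174 against 48 (1.96). Prc1 had 299 against 89 (1.85 [1.51 to 2.21]).

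In the kinetochore and checkpoint list 17 of 18 members tested were higher, with a median log2 ratio of 1.56. Knl1, the kinetochore scaffold for checkpoint proteins (chromosome 2, 118877598 to 118935982), had 521 against 141 UMIs, a log2 ratio of 1.99 [1.72 to 2.27]. Its CPM over the rank bins was 90.0, 213, 276 and 358. Cenpa, the centromere histone, had 265 against 72 (1.99 [1.61 to 2.38]) and Sgo2a, a shugoshin that guards centromere cohesion, 236 against 77 (1.72). Cenph, at 134 against 97 UMIs (0.57 [0.18 to 0.96]), was the member under 1.5-fold.

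Of the mitotic kinases, cyclins and proteolysis genes 11 of 13 were higher (median log2 ratio 1.49). Cdk1, the kinase that drives mitosis, had 138 against 52 UMIs (1.51 [1.04 to 2.00]), and its activating phosphatase Cdc25c had 118 against 32 (1.99 [1.41 to 2.60]). Espl1 had 310 against 103 (1.70 [1.37 to 2.03]). Below 1.5-fold were Fbxo5, an inhibitor of the anaphase-promoting complex, at 57 against 47 UMIs (0.38), and Pkmyt1, an inhibitory kinase of Cdk1, at 90 against 70 (0.47).

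Condensin, cohesin and nuclear envelope genes had smaller ratios, with 15 of 19 higher and a median of 0.90. Smc4 and Smc2, the condensin core, had 558 against 271 (1.15 [0.94 to 1.36]) and 301 against 115 UMIs (1.49 [1.18 to 1.82]). Cdca2, a phosphatase subunit of mitotic chromatin, had 330 against 92 (1.95 [1.61 to 2.30]). Lmnb1 (lamin B1) had 328 against 173 (1.03 [0.76 to 1.30]) and Lbr, its receptor at the inner nuclear membrane, 136 against 83 (0.82). The cohesin members Stag2 and Smc3 had log2 ratios of 0.18 and 0.42. Of the cytokinesis genes 8 of 10 were higher (median 1.44), among them Diaph3, a formin, at 1122 against 455 UMIs (1.41 [1.25 to 1.57]), Racgap1 at 352 against 126 (1.59) and Ect2, the exchange factor that activates RhoA, at 270 against 96 (1.60). Rhoa itself had a log2 ratio of 0.49.

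**Figure D3:**
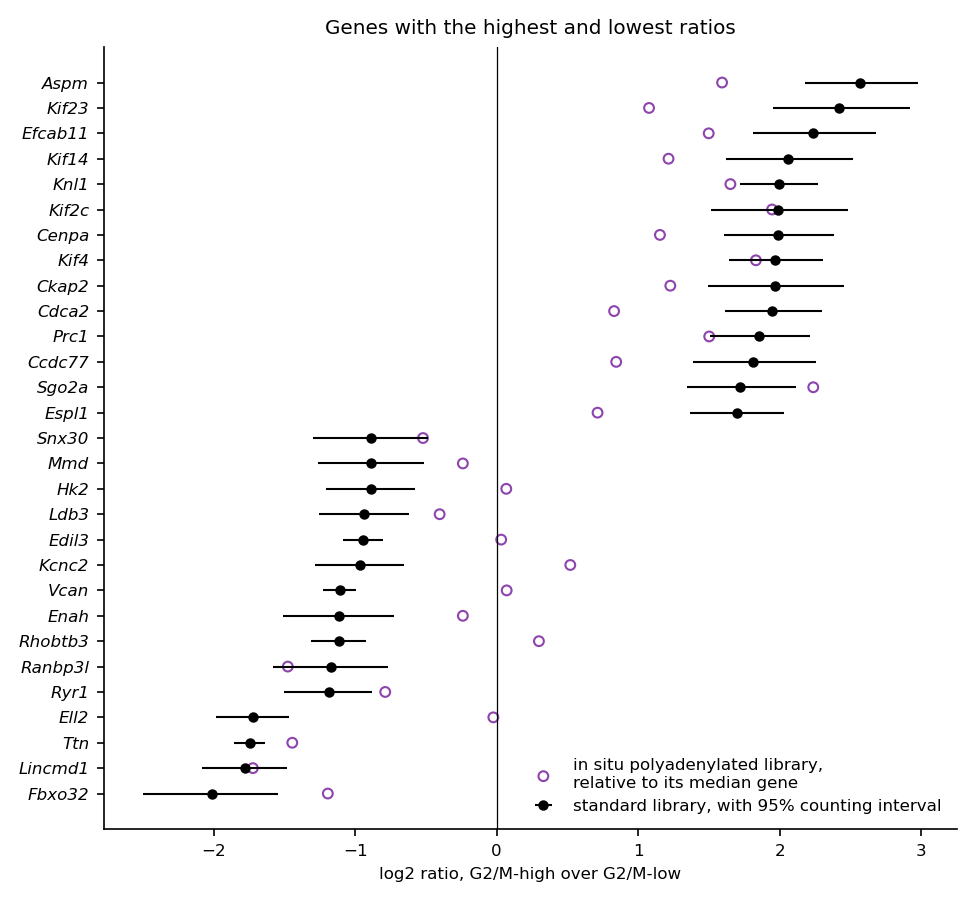
Log2 ratio of CPM, G2/M-high over G2/M-low, of 14 of the 15 highest genes and of the 15 lowest, taken from those that reached 200 UMIs. Filled points with bars are the standard library with its 95% counting interval, and open circles are the same ranking in the in situ polyadenylated library, relative to its median gene. All 14 open circles of the upper genes lie above 0, and those of Rhobtb3, Vcan, Kcnc2, Edil3 and Hk2 lie above 0 although their filled points lie below.

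Of the 15 genes with the highest ratios among those with at least 200 UMIs, 13 were members of the mitosis lists. The others were Efcab11 (chromosome 12, 99659304 to 99850698), whose product has EF-hand motifs, at 245 against 56 UMIs (2.24 [1.81 to 2.68]), and Ccdc77 at 196 against 60 (1.81 [1.39 to 2.26]). In these 15 genes no single nucleus held more than 3.65% of the UMIs. Cdca2, Prc1, Ccdc77 and Sgo2a each overlap a gene on the opposite strand, and since it is not stated whether the STAR counts used strand, reads of the partners cannot be told apart in them. In the kallisto counts of the same nuclei, which the study's methods give as strand-aware, Prc1 had 92 against 12 UMIs (3.03), Cdca2 82 against 19 (2.20), Sgo2a 70 against 18 (2.05) and Ccdc77 28 against 15 (0.99 [0.04 to 2.00]). Efcab11 had 5 against 0.

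Of the 317 higher genes, 214 were in no list. Those named here were chosen after their values were seen. Pif1, a DNA helicase, had 101 against 24 UMIs (2.18 [1.53 to 2.89]) and Kpna2, an importin, 100 against 27 (2.00 [1.37 to 2.67]). Hjurp, the chaperone that deposits Cenpa, had 610 against 274 (1.26 [1.05 to 1.47]). Centrosome genes were also among them, such as Plk4, the kinase of centriole duplication, at 133 against 65 (1.14 [0.70 to 1.59]) and Pcnt (pericentrin) at 337 against 177 (1.04 [0.77 to 1.31]).

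Transcription factors of the cell cycle had smaller ratios than the mitosis genes. Of 12 such factors with at least 100 UMIs, 5 were higher and 0 lower, with a median log2 ratio of 0.30. The largest was Lin9, a MuvB subunit, at 85 against 40 UMIs (1.19 [0.64 to 1.77]), and E2f8, a repressor of the E2F family, had 0.82. Other factors lay under 100 UMIs and were not called, namely Foxm1, which drives G2/M genes, at 69 against 26 UMIs (1.51 [0.84 to 2.22]), Mybl2 (B-MYB) at 39 against 42, and E2f1, an activator of S-phase genes, at 20 against 54 (-1.33 [-2.15 to -0.56]).

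DNA replication genes differed less than mitosis genes and did not follow the ranking to its end. Of 28 tested, 8 were higher and 0 lower, with a median log2 ratio of 0.33, and their sums were 5129 against 4375 UMIs (0.34 [0.28 to 0.39]). The summed CPM was 2792 in the bottom bin, 3712 in the second, 4006 in the third and 3523 in the top. The members past 1.5-fold included Tk1 (thymidine kinase) at 111 against 60 UMIs (0.99 [0.53 to 1.47]), Pole, the catalytic subunit of polymerase epsilon, at 201 against 115 (0.91 [0.57 to 1.26]) and Rrm2, of ribonucleotide reductase, at 72 against 49 (0.66). Atad2, a chromatin ATPase of S phase, had 846 against 671 (0.44 [0.29 to 0.59]), under the fold. Genes of homologous recombination and fork repair had larger ratios, with 10 of 13 higher and a median of 0.87, such as Brca2 at 176 against 84 UMIs (1.17 [0.79 to 1.57]) and Brca1 at 190 against 98 (1.06 [0.70 to 1.43]).

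Histone transcripts that are made in S phase stepped up with every rank bin, at 398, 559, 707 and 820 CPM for the summed list. Most of these RNAs end without a poly(A) tail. Of the 64 members 5 reached 100 UMIs, and 5 of 5 were higher. The linker histones H1f4 and H1f5 led in UMIs, with 448 against 230 (1.07 [0.84 to 1.30]) and 260 against 106 (1.40 [1.07 to 1.74]).

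**Figure D4:**
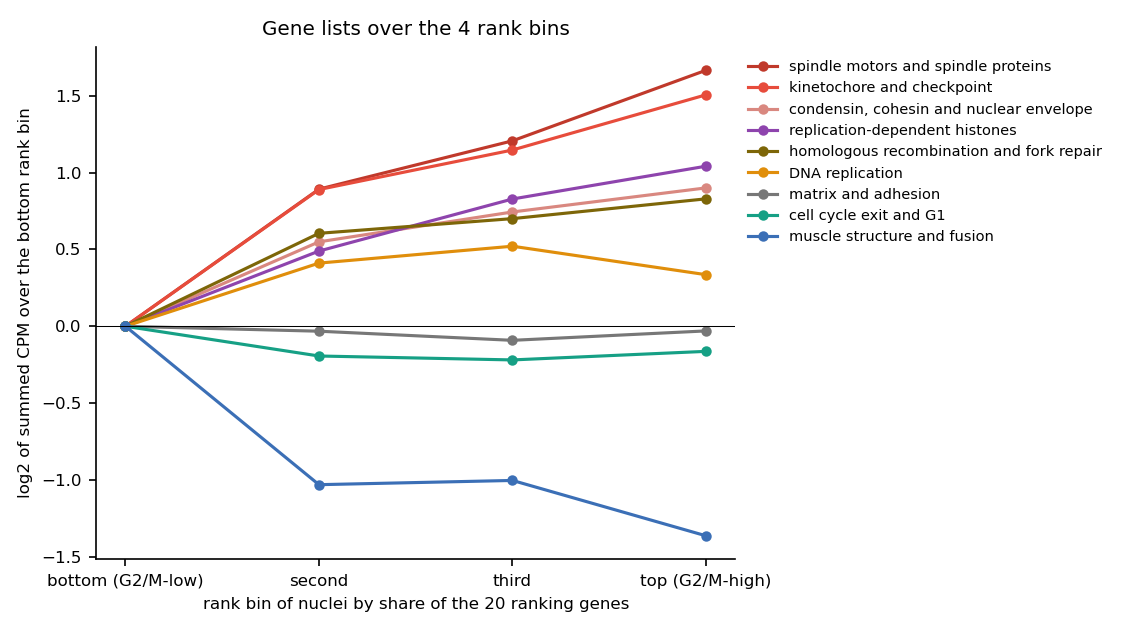
Summed CPM of 9 gene lists in the 4 rank bins of nuclei, as log2 over the bottom bin (G2/M-low). The mitosis and histone lists step up to the top bin (G2/M-high), DNA replication is highest in the third, and the muscle list falls from the bottom bin to the second and is lowest in the top.

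Of 14 genes of cell cycle exit and G1 tested, 0 were higher and 2 lower, with a median log2 ratio of -0.24. The lower members were a larger share than the 3.82% of all genes tested, though they were only 2 genes. The whole list summed to 1934 against 2331 UMIs (-0.16 [-0.25 to -0.08]). Gadd45a, a stress-response gene, had 51 UMIs in G2/M-high and 115 in G2/M-low nuclei (-1.07 [-1.57 to -0.58]) and Foxo3, a transcription factor of quiescence, had 87 against 145 (-0.63 [-1.03 to -0.24]). The inhibitors Cdkn1a (p21) and Cdkn1b (p27) had 54 against 67 (-0.20 [-0.75 to 0.33]) and 72 against 74 UMIs (0.07 [-0.42 to 0.55]), and Ccnd1 (cyclin D1) had 211 against 207 (0.13 [-0.15 to 0.42]). Cdkn2a and Cdkn2b had 0 UMIs in both groups, where 3 UMIs would be 2.06 CPM in G2/M-high and 1.91 CPM in G2/M-low nuclei.

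Muscle structure and fusion genes were lower in G2/M-high nuclei. Of 12 members tested out of 29, 7 were lower and 0 higher, with a median log2 ratio of -1.06. Neb and Myh3, among the 12, passed the minimum only through G2/M-low nuclei, where they were higher. The count and the median thus include members admitted by the direction described. All 29 members summed to 1965 against 5440 UMIs (-1.36 [-1.44 to -1.29]). Ttn (titin, the spring of the sarcomere; chromosome 2, 76534136 to 76812891, minus strand) had 852 UMIs in G2/M-high and 3072 in G2/M-low nuclei (-1.74 [-1.86 to -1.63]). Neb (nebulin, of thin filaments) had 10 against 136 (-3.66 [-4.75 to -2.74]). Myh3, the embryonic myosin heavy chain, had 3 against 149 (-5.53 [-7.82 to -3.95]). Ryr1, the calcium release channel, had 122 against 299 (-1.19 [-1.50 to -0.88]), and Ldb3, a Z-disc protein, 124 against 255 (-0.93 [-1.26 to -0.62]).

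A small number of nuclei carried this difference. Nuclei with 50 or more UMIs of the list numbered 24 of 280 in the bottom bin, 6 in the second, 6 in the third and 2 of 280 in the top, and the 24 held 66.2% of the list's UMIs in the G2/M-low group. The medians of the list per nucleus lay close together, at 5 UMIs in G2/M-high and 6 in G2/M-low nuclei. Without the nuclei at 50 or more, which was set after the values were seen, the list's log2 ratio was -0.08 and that of Ttn turned to 0.20 (673 against 575 UMIs). These nuclei were picked by UMIs of this same list, not by share, and most were G2/M-low. A move of the list and of Ttn toward 0 was thus built in. Neb then had 9 against 14 UMIs and Myh3 2 against 3. The counts of the comparison were 285 genes higher and 181 lower of 5243 tested, with 273 and 151 shared with the full groups.

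**Figure D5:**
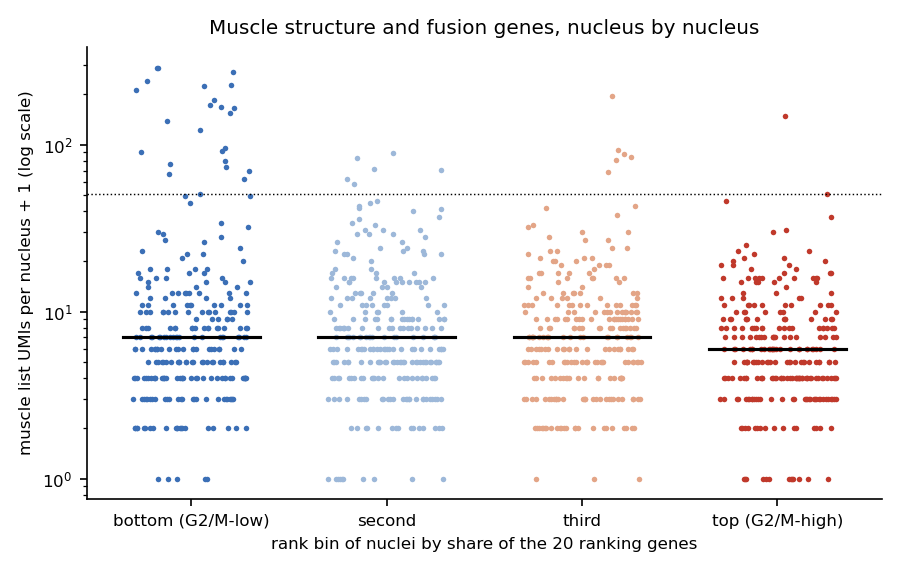
UMIs of the muscle structure and fusion list in each standard nucleus, plus 1 on a log scale, by rank bin. Lines are medians, at 6, 6, 6 and 5 UMIs, and the dotted line marks 50 UMIs. Above it lie 24 nuclei of the bottom bin and 2 of the top bin.

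Regulators of muscle fate were not called. Of 8 tested, 0 were higher and 0 lower, with a median log2 ratio of -0.10. Myog (myogenin), which marks the start of differentiation, had 2 UMIs in G2/M-high and 10 in G2/M-low nuclei (-2.22 [-5.45 to 0.01]), and Mef2c had 9 against 35, both under the minimum.

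Of the 15 lowest genes, leaving aside members of the muscle list, only Lincmd1 had an interval that held 0 without the muscle-rich nuclei. Fbxo32 (atrogin-1, a ubiquitin ligase subunit induced in muscle atrophy; chromosome 15, 58039275 to 58078741) had 47 UMIs in G2/M-high and 204 in G2/M-low nuclei (-2.01 [-2.50 to -1.55]), and still 47 against 164 without those nuclei (-1.83 [-2.33 to -1.36]). Its CPM over the rank bins was 130, 54.2, 33.1 and 32.3. Lincmd1, a muscle lncRNA, had 120 against 443 (-1.78 [-2.08 to -1.48]) but 99 against 125 without them (-0.36 [-0.76 to 0.03]). Ell2, an elongation factor of RNA polymerase II, had 163 against 579 (-1.72 [-1.98 to -1.47]), with 18.7% of its UMIs in 1 G2/M-low nucleus (-1.33 [-1.60 to -1.07] without it), and -1.64 without the muscle-rich nuclei.

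2 matrix genes were among the 15 lowest. Vcan (versican, a matrix proteoglycan; chromosome 13, 89803431 to 89890814) had 842 against 1955 UMIs (-1.11 [-1.23 to -0.99]) and Edil3, an integrin ligand, 627 against 1299 (-0.94 [-1.08 to -0.81]). Without the muscle-rich nuclei these were -1.03 and -0.74. Vcan overlaps Gm4117 on the opposite strand, and its strand-aware kallisto counts were 153 against 396 UMIs (-1.28 [-1.56 to -1.01]). The matrix and adhesion list, which does not hold them, had 0 of 20 members higher and 1 lower, with a median of -0.06 and a summed log2 ratio of -0.03 [-0.07 to 0.01]. That member was Thbs1 (thrombospondin 1), at 110 against 196 (-0.73 [-1.08 to -0.38]). Among the 15 lowest were also Rhobtb3 at 303 against 707 (-1.12), Kcnc2, a potassium channel, at 126 against 265 (-0.97) and Hk2 (hexokinase 2) at 130 against 259 (-0.89). 1 G2/M-low nucleus held 65 of the Hk2 UMIs, and without it Hk2 had 130 against 194 (-0.49 [-0.82 to -0.16]) and was no longer past 1.5-fold.

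Of the 207 lower genes, 194 were in no list, and the following were picked after their values were seen. Mxd4, which opposes Myc, had 30 against 96 UMIs (-1.57 [-2.21 to -0.97]), Bcl6, a transcriptional repressor, 41 against 90 (-1.03 [-1.60 to -0.48]) and Kdm5b, a histone H3K4 demethylase, 42 against 107 (-1.24 [-1.79 to -0.72]). Trp53inp1, a p53 target, had 46 against 105 (-1.08 [-1.62 to -0.57]) and Dysf (dysferlin, of muscle membrane repair) 35 against 105 (-1.48 [-2.07 to -0.91]).

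Malat1 and Neat1 took larger shares of UMIs in G2/M-low than in G2/M-high nuclei. Malat1, a nuclear lncRNA, made up 7.18% of their UMIs and 10.2% of those of G2/M-low nuclei (log2 ratio -0.49 [-0.51 to -0.48]). Neat1, the scaffold of paraspeckles, had 4656 against 7652 UMIs (-0.61 [-0.66 to -0.56]) and was past 1.5-fold. H19, an imprinted lncRNA, went the other way with 474 against 308 (0.73 [0.52 to 0.94]). Of 8 nuclear and imprinted lncRNAs tested 1 was higher and 1 lower, with a median of -0.10. The summed CPM of that list, which Malat1 dominates, was 108961, 80181, 78621 and 78117 from bottom to top bin. The excess thus lay in the bottom bin. The tenth of nuclei with the most UMIs of the list held 33.0% of them in G2/M-low and 23.4% in G2/M-high. That order is by UMIs and not by share, so it also follows depth. By the same measure DNA replication genes gave 28.8% and 23.7%, and cytosolic ribosomal proteins 24.9% and 26.4%. All lncRNAs without Malat1 made up 2.82% against 2.77% of UMIs (0.03 [0.01 to 0.05]). Rn18s-rs5, an rRNA gene and the most abundant gene of both groups, made up 14.9% against 12.2%. Mitochondrially encoded RNA made up 0.121% against 0.167%. Lists of SRF and YAP targets had 0 of 13 higher and 2 lower, Acta2 at 41 against 74 UMIs (-0.75 [-1.33 to -0.18]) and Actg1 at 60 against 105 (-0.70 [-1.18 to -0.23]). The lower share was above the 3.82% of all genes tested, from 2 genes. The targets summed to 3924 against 4534 UMIs (-0.10 [-0.16 to -0.04]). Of 6 immediate early and heat shock genes 0 passed the fold either way.

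Of the markers of cells that a myoblast culture should lack, 1 adipocyte and 1 osteoblast marker reached 100 UMIs in both groups together. In the immune, endothelial and neural lists 0 did. Immune markers summed to 15 UMIs in G2/M-high and 7 in G2/M-low nuclei over 7 genes, with Cd79a and Lyz2 at 0, and endothelial markers to 20 and 43 over 6 genes. Adipocyte markers summed to 86 and 102 over 5 genes with Fabp4, Cidec and Adipoq at 0. Neural and glial markers summed to 58 and 50 over 6 genes with Sox10 at 0. Osteoblast markers summed to 636 and 806 over 6 genes with Bglap, Ibsp and Sost at 0, and Runx2 alone held 631 and 803 of these.

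Free RNA was read from 226358 barcodes with 1 to 100 kallisto UMIs. On the kallisto scale the ranking genes made up 0.276% of UMIs in those droplets, 0.135% in G2/M-low and 0.759% in G2/M-high nuclei. The 5 mitosis lists made up 0.697%, 0.415% and 1.16%, so G2/M-low nuclei lay below the droplets for both. The muscle list made up 0.151% of droplet UMIs, 0.169% in G2/M-high and 0.521% in G2/M-low nuclei, so that G2/M-high nuclei lay close to the droplets. The part of free RNA in the results was not tested.

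The 2 count matrices gave the muscle list and most of the mitosis lists different weight in the 2 groups. STAR UMIs per kallisto UMI were 4.49 in G2/M-high and 4.55 in G2/M-low nuclei over all genes, and the median gene had 11.1 where exons covered under 10% of its body (661 genes) and 2.60 where they covered at least 90% (123 genes). For the spindle list the ratio was 5.06 in G2/M-high and 6.06 in G2/M-low nuclei, and for the muscle list 3.56 and 3.03. It was 4.73 and 5.90 for the kinetochore list and 5.94 and 7.33 for cytokinesis. For condensin, cohesin and nuclear envelope it was 5.08 and 5.67. On the same nuclei the kallisto UMIs gave log2 ratios of 1.91 for the spindle list and -1.61 for the muscle list, against 1.67 and -1.36 with STAR. For the list of mitotic kinases, cyclins and proteolysis they gave 1.30 against 1.31, and for replication-dependent histones 1.00 against 1.04.

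Shorter genes were called higher more often than long ones. In the shortest of 4 equal bins of protein-coding genes by gene body, 8.27% were higher past 1.5-fold and the median log2 ratio was 0.03, while in the longest bin these were 2.71% and -0.07. The median length was 33.7 kb for higher, 57.4 kb for lower and 48.5 kb for all tested protein-coding genes. By chromosome the median lay between -0.05 (chromosome 14) and 0.06 (chromosome 17).

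CHR letters were more frequent in promoters of the higher genes. Within the 250 bases before and 50 after the start, on either strand, CHR letters (TTTGAA or TTCGAA) were in 39.4% of 289 promoters of the higher genes, 9.87% of 233 promoters of the lower genes and 13.6% of 5779 promoters of all tested genes, with 19.2% over all promoters in the table. They were in 14 of 18 promoters of the ranking genes, of which 18 of 20 were matched, and in 55 of 92 of the 5 mitosis lists. Outside the mitosis lists the higher genes still held them in 30.9%. From 60 bases before to 10 after the start, where each printed promoter holds one, the shares were 17.0% for higher, 1.72% for lower and 2.87% for all tested genes.

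CCAAT was in 60.9% of promoters of the higher genes, 36.1% of the lower and 36.2% of all tested. The E-box letters CAGCTG, which bind myogenic factors, were in 26 of 289 promoters of the higher genes, 19.7% of the lower and 14.4% of all tested, and in 10 of 29 promoters of the muscle list. CHR letters and CCAAT stood together in 27.7% of promoters of the higher genes and 2.58% of the lower, against 5.66% of all tested. These matches describe the letters present and do not show that a factor binds there.

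The same rule was applied to the in situ polyadenylated library, which shares no barcode with the standard one. Its 332 top and 332 bottom nuclei differed in depth, with medians of 5082 and 6885.5 STAR UMIs, and in composition. Counts assigned to Peak1 made up 22.3% of UMIs in the top and 33.7% in the bottom nuclei. ENSMUSG00002076173 made up 13.5% and 21.3%, and the rRNA gene Rn18s-rs5 20.2% and 12.0%. Whether the Peak1 counts stem from Peak1 transcripts was not tested. Top nuclei held a median of 11 ranking UMIs and bottom nuclei 1. Over 3160 genes with at least 100 UMIs, the median gene had a log2 ratio of 0.75. By CPM 65.9% of genes were higher past 1.5-fold and 0.538% lower, and values below are given relative to that median, a choice made after seeing it.

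Mitosis genes again stood above the other genes. Of 60 members of the 5 lists tested there, 58 were above the median gene and 44 were past 1.5-fold over it. Aspm had 121 against 34 UMIs (relative log2 ratio 1.59), Knl1 215 against 58 (1.65) and Sgo2a 89 against 16 (2.24). Of 168 genes that were higher in the standard library and tested in both, 151 (89.9%) were above the median and 87 (51.8%) past 1.5-fold over it, against 52.6% and 6.04% of all 2996 genes tested in both. Of 69 lower genes 53 (76.8%) were below the median and 17 (24.6%) past 1.5-fold under it, against 47.4% and 6.51%.

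In that library Ttn and Lincmd1 lay below the median gene, while Vcan, Edil3, Rhobtb3, Kcnc2 and Ell2 had intervals that held 0. Ttn had 814 UMIs in the top and 1877 in the bottom nuclei (relative log2 ratio -1.44 [-1.56 to -1.32]), Lincmd1 64 against 179 (-1.72 [-2.16 to -1.30]) and Fbxo32, under the minimum of 100 UMIs and not tested there, 16 against 31 (-1.19 [-2.16 to -0.28]). Of 10 muscle genes tested, 9 were below the median and 7 past 1.5-fold under it. Here too the list's UMIs lay in few nuclei. In the bottom nuclei, the 10% with the most UMIs of the muscle list held 70.6% of them, against 41.5% in the top nuclei. The median share per nucleus, not taken relative to the median gene, was 0.058% in top and 0.044% in bottom nuclei. Whether these genes stay lower there without the muscle-rich nuclei was not tested. Relative to the median gene Vcan had 0.07 [-0.12 to 0.26], Edil3 0.03 [-0.25 to 0.32], Rhobtb3 0.30 [-0.01 to 0.62] and Ell2 -0.02 [-0.45 to 0.41]. Kcnc2, also under the minimum there, had 0.52 [-0.21 to 1.28].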

How the data were processed

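The standard library and the in situ polyadenylated library each had 6 files and no replicate. The submitters' processing notes name cutadapt 3.4, STAR 2.7.10a, kallisto 0.48.0 and bustools 0.41.0, with GRCm39, and the study used GENCODE M28. The authors deposited STAR matrices of whole-number UMI counts, not normalized, for a subset of 8474 standard barcodes whose selection the sources used here do not state, and kallisto matrices of estimated counts, rounded here to whole UMIs when summed. Other columns were names. Of 55414 genes, 54749 were matched by identifier to GENCODE M39 of the same build, which gave coordinates, lengths and biotypes.

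Counts were summed per group and gene and scaled to CPM without the 20 ranking genes. A gene was tested for the fold, in the sense of being counted, at 100 or more UMIs in both groups together and was called past 1.5-fold. Intervals are exact conditional intervals of a ratio of Poisson counts at 95%, and no ratio was made where both groups had 3 UMIs or fewer. The genes named were the 15 highest and 15 lowest with at least 200 UMIs and no nucleus holding over 25% of them (3130 considered, 1 left out), the ranking genes, list members and the most abundant gene. Of the 15 highest, 1 is not reported here. Other genes were picked after their values were seen. The members and lists were chosen with earlier results of these data known. A limit of 5% mitochondrial UMIs removed 0 standard nuclei. Doublets were not called, and leaving out the deepest 5% was an alternative. Alternative groups, depths, ranking genes, matrices, minima and denominators were run. Promoters came from RefSeq (GRCm38.p6) and were matched by symbol. Their motifs, the muscle-rich nuclei and the centring of the in situ polyadenylated library were chosen after seeing the data. Python 3.11.15, numpy 2.4.6, scipy 1.17.1 and pandas 2.3.3 were used, and the code was tested on simulated data.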

Additional observations from a re-analysis of the deposited data

Results flagged for a closer look

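With STAR counts, 1 list had intervals on opposite sides of 0 in the 2 libraries. The in situ polyadenylated value was taken relative to its median gene, and the difference itself was not tested. Lists with an interval that held 0 were not flagged. Cytosolic ribosomal protein genes had a log2 ratio of G2/M-high over G2/M-low of 0.16 [0.09 to 0.24] in the standard library. The kallisto counts of the same nuclei gave 1367 against 1469 UMIs and -0.015 [-0.12 to 0.09]. In the in situ polyadenylated library it was -0.18 [-0.26 to -0.09] relative to the median gene and 0.57 [0.48 to 0.66] by CPM, so the opposite direction holds for the centred value alone.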

How the results depend on the processing

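In the values below, mitosis stands for the summed log2 ratio of the 5 mitosis lists, replication for DNA replication and muscle for muscle structure and fusion. Taking 10% of the nuclei at each end gave 209 genes higher, mitosis 1.90, replication 0.68 and muscle -1.16, and 33.3% at each end gave mitosis 1.08 and muscle -1.21. Ranking within 5 depth bins gave mitosis 1.25. Thinning to 2000 UMIs gave 114 higher and 62 lower of 2306 tested, mitosis 1.14 and muscle -1.26. Ranking by the first 10 genes gave mitosis 1.18, by the last 10 mitosis 1.24 and muscle -1.05, and without Top2a, Mki67 and Cenpe mitosis 1.25 and muscle -1.11. Kallisto counts for both ranking and description, so that other nuclei were chosen, gave 75 higher and 31 lower of 681 tested, replication 0.48 and muscle -1.48, and changed the sign of cell cycle exit and G1 (0.11), myogenic regulators (0.29), Lincmd1 (1.98) and Ranbp3l (0.24). Kallisto counts on the nuclei of the STAR ranking gave 72 higher and 39 lower of 717, mitosis 1.49, replication 0.40 and muscle -1.61, with cytosolic ribosomal proteins now below 0 (-0.015), cell cycle exit and G1 -0.17, myogenic regulators -0.077, Lincmd1 -0.72 and Ranbp3l -0.94, the last 2 from 4 UMIs against 7 and 8. A minimum of 500 kallisto UMIs per nucleus gave mitosis 1.19, replication 0.19 and muscle -1.16. A minimum of 1500 gave 141 genes higher of 2055, mitosis 1.41, replication 0.53, muscle -0.85 and SRF and YAP targets 0.084, now above 0. Taking the 8227 barcodes over 750 STAR UMIs gave mitosis 1.08, replication 0.068 and muscle -1.14. Only 1123 barcodes passed the kallisto minimum, so many of the 8227 may be droplets without a nucleus. Without the 5% deepest nuclei replication was 0.26 and muscle -1.47, and as the mean of per-nucleus shares muscle was -1.46. Gene minima of 50, 200 and 500 UMIs gave 531, 158 and 36 higher and 424, 86 and 21 lower of 7773, 3131 and 1015 tested, and 2-fold gave 124 and 34. Without the muscle-rich nuclei mitosis was 1.25, muscle -0.084 and Ttn 0.20, now above 0. Those nuclei were picked by the muscle list itself, so its move toward 0 was built in.

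In the in situ polyadenylated library by CPM 2084 genes were higher and 17 lower of 3160, with mitosis 1.67, replication 1.04 and muscle -0.40. Marker lists aside, some lists and named genes with a standard interval below 0 were above 0 there. The lists were cell cycle exit and G1 (0.51), myogenic regulators (0.57), SRF and YAP targets (0.71), nuclear and imprinted lncRNAs (0.70) and mitochondrially encoded RNA (0.16). The genes were Ell2 (0.72), Rhobtb3 (1.05), Enah (0.51), Vcan (0.82), Kcnc2 (1.27), Edil3 (0.78), Ldb3 (0.35), Hk2 (0.82), Mmd (0.51) and Snx30 (0.23). Relative to its median gene 182 were higher and 319 lower, with mitosis 0.92 and muscle -1.15. Among items whose standard interval excluded 0, signs then differed for cytosolic ribosomal proteins (-0.18), Rhobtb3 (0.30), Vcan (0.071), Kcnc2 (0.52), Edil3 (0.032) and Hk2 (0.068).

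Over 17 settings within the standard library, 51 values of the mitosis, replication and muscle lists kept their direction. Of these, 19 lay within the counting interval of the main result and 32 outside it. Direction was read by sign alone. Among the 32 were muscle at -0.084 without the muscle-rich nuclei and replication at 0.068 over the 8227 barcodes, both near 0. For the 15 highest genes, also run without the nucleus holding most of a gene's UMIs, 270 values kept their direction and 50 lay outside that interval. For the 15 lowest 3 of 270 changed sign and 82 more lay outside it. Without that nucleus Hk2 was -0.49. Both this and the kallisto counts on the STAR ranking were chosen after seeing the data. The cause of each change was not tested. Depth limits the lists to genes with enough UMIs, and 1 library limits every value to these nuclei. No paired analysis was possible because both groups are nuclei of a single library.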
